A study of Mus musculus with 24 samples.

Results

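The genes described here are 36 genes that mouse spermatids, the haploid male germ cells that are reshaped into sperm, are known to express, out of 30699 genes in the deposited tables of a study of white and brown fat. They were chosen after genes of the sperm lineage had been seen in some white fat libraries, so their white fat levels chose them and are given as a description. Counts from fits over all genes are printed for white fat too, and nothing is read from them. The 36 genes fall into 7 groups by role, from DNA packaging in the sperm head to the calcium channel of the tail. All 36 were measured in white adipose tissue (WAT) and 19 of the 36 had any read in brown adipose tissue (BAT).

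Poly(A)-selected RNA was sequenced from WAT and BAT of C57BL/6 mice. Every mouse was given, by 2 subcutaneous doses of 25 mg/kg, an oligonucleotide containing locked nucleic acid (LNA), a modification that makes it bind its target tightly. The oligonucleotide was directed against miR-224 (antimiR-224) or miR-452 (antimiR-452), or had a scrambled sequence (scramblemiR, the control). Each of the 6 groups had 4 libraries. The labels give no age, sex or white fat depot, and do not say that each library came from a separate animal, so spreads and p-values refer to these libraries. The series title names oestrogen, but no group label here does.

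Spermatids silence transcription as their chromatin is compacted, first by transition proteins and then by protamines, and many of their messenger RNAs are made from genes that few other cells use. The transcription factor CREM, acting through cAMP response elements (CRE, TGACGTCA in its full form), is known for switching on many of these genes after meiosis. In bulk tissue, fewer cells of a type and less RNA per cell cannot be told apart.

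The deposited tables hold group means of normalized counts, from which the reads of each library were recovered. A level below is a normalized count in 1 library, and libraries are numbered within each group by descending size factor, since recovered libraries cannot be tied to sample titles. ScramblemiR library 2 of WAT stood apart from the other 3 controls before any comparison. It held 657 genes at a level of at least 100 that were under 10 in each of the other 3 controls, against 0, 0 and 10 such genes in libraries 1, 3 and 4. Of the 657 genes, 25 were among the 36 spermatid genes. All 4 controls expressed adipocyte genes, with Fabp4, the fatty acid carrier of adipocytes, at 369222, 255982, 352559 and 452781. Kdm5d and Uty, which lie on the Y chromosome, were present in all 12 WAT libraries at 526 to 912 and 269.6 to 828.

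Sequences just before the transcription start are shown for 8 of the genes, because the CRE is known to act on many spermatid genes. Whether these motifs bear on the levels in the libraries was not tested. RefSeq promoters (build GRCm38.p6) were matched by symbol for 32 of the 36 genes. Of these 32 genes, 14 (43.8%) held TGANNTCA, the CRE with any 2 bases in its centre, within the 250 bases before a listed start, against 13.5% of all 27025 genes in the promoter table. That motif reads the same on both strands. It was searched after the full CRE had been found in 1 of the 32 (3.12%, all genes 1.77%), so its share is a description. The shorter TGACG, searched on both strands and overlapping the full CRE, was in 9 (28.1%, all genes 19.8%), and TATAAA, searched likewise, in 3 (9.38%, all genes 14.3%). In a separate list of 40 other late germ cell genes, TGANNTCA was in 12 of 27 (44.4%), and in 29 meiotic genes in 2 of 24 (8.33%). The 100 bases before the start are written 5′ to 3′ with TGANNTCA and TGACG in capitals. Prm2, the most abundant of the 36, held neither motif and is shown for contrast.
Prm1, chr16:10796824-10796923, minus strand: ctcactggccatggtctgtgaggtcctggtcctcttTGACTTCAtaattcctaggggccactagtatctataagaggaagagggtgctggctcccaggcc
Prm2, chr16:10792106-10792205, minus strand: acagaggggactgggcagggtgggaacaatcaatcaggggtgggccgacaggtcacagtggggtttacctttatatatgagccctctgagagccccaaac
Tnp1, chr1:73015900-73015999, minus strand: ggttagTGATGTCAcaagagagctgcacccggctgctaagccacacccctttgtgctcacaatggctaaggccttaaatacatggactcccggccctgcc
Akap4, chrX:7067415-7067514, plus strand: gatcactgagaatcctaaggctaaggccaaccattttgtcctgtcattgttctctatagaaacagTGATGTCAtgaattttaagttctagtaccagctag
Gapdhs, chr7:30743682-30743781, minus strand: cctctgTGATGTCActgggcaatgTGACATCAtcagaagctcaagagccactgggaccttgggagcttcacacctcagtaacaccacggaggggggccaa
Ldhc, chr7:46861163-46861262, plus strand: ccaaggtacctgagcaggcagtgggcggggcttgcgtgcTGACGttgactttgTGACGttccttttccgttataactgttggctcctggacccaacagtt
Tssk2, chr16:17898537-17898636, plus strand: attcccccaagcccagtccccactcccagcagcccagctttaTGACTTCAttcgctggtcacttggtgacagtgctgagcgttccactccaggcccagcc
Izumo1, chr7:45621711-45621810, plus strand: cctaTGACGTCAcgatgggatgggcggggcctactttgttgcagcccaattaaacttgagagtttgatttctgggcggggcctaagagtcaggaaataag
Gapdhs carries 2 copies of TGANNTCA in this stretch and Ldhc 2 copies of TGACG. Izumo1 alone among the 32 genes holds the full TGACGTCA. A match is a description of letters, and whether a factor binds there was not measured.

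All 36 spermatid genes had their highest WAT level in scramblemiR library 2, and all 36 had their second highest in antimiR-224 library 3. The third highest was antimiR-224 library 4 for 29 of them. Summed over the 36 genes, scramblemiR libraries 1 to 4 held 389, 53734, 415 and 481 normalized counts. The antimiR-224 libraries held 732, 1206, 14129 and 3940.2, and the antimiR-452 libraries 1340.4, 1056, 618 and 505. The scramblemiR range, from 389 to 53734, thus enclosed every antimiR-224 and antimiR-452 value. In the controls, whose reads were all recovered, the 36 genes took 15.7, 2562, 16.9 and 18.9 RPM (reads of the gene set scaled by the total of reads in genes), and the exact 95% binomial interval of the second value runs from 2542 to 2584. Such intervals cover counting error only.

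**Figure D1:**
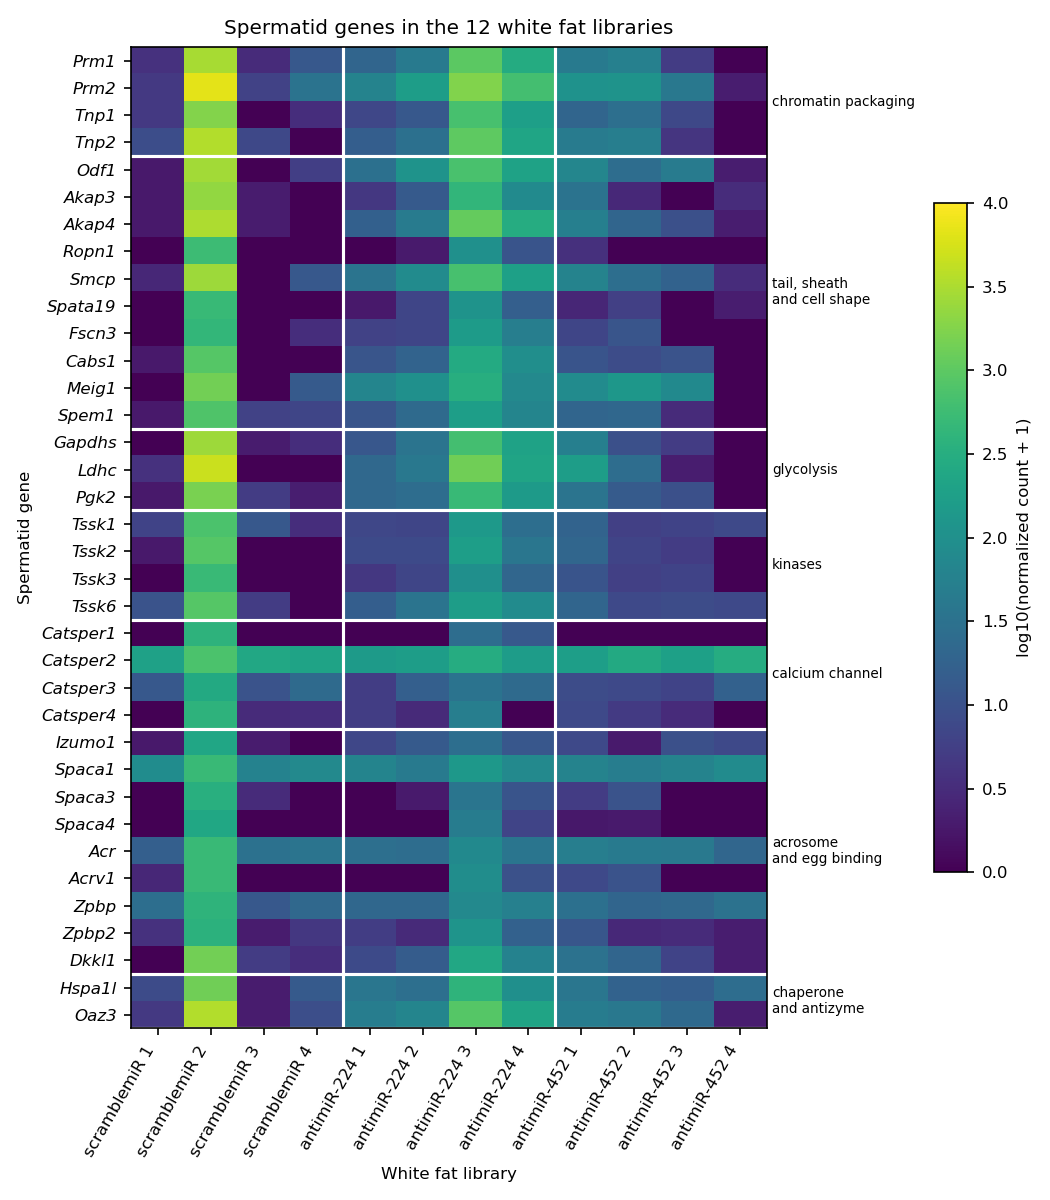
Level of each of the 36 spermatid genes (rows, grouped by role) in the 12 white fat libraries (columns), as log10(normalized count + 1) on the colour scale. ScramblemiR library 2 is the brightest column for all 36 genes, antimiR-224 library 3 is the next, and Catsper2, Spaca1, Acr and Zpbp keep a visible level in every library.

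The 4 chromatin packaging genes were the most abundant of the 36 in scramblemiR library 2 when levels were divided by exon length. They held between 4090.0 (Tnp1) and 7718 (Prm2) normalized counts per kb of exon there, against 3081 for the next gene, Ldhc. Prm2 (ENSMUSG00000038015, chr16:10791380-10796134) encodes a protamine, which packs sperm DNA. Its levels were 3.54, 6900.2, 5.21 and 32.2 in the scramblemiR libraries, 61.0, 165, 1759 and 637 in the antimiR-224 libraries and 109, 114, 39.1 and 1.11 in the antimiR-452 libraries. ScramblemiR library 2 was the highest of the 12. Tnp2 (ENSMUSG00000043050, chr16:10787936-10788660) encodes a transition protein, which replaces histones before protamines are laid down. Tnp2 was at 7.96, 3437, 6.25 and 0 with scramblemiR, at 14.8, 29.1, 1029.7 and 222 with antimiR-224 and at 44.7, 50.4, 3.17 and 0 with antimiR-452. All 3 groups overlapped for both genes. Prm1 and Tnp1, the other protamine and the other transition protein of the list, reached 3001 and 1787 in scramblemiR library 2 and 986 and 677 in antimiR-224 library 3. Prm1, Prm2 and Tnp2 lie side by side on chromosome 16.

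The proportion of both protamine genes to each other moved little among the 3 highest libraries. Prm2 gave 69.7% of the reads of the pair in scramblemiR library 2 (exact 95% interval 68.8 to 70.6), 64.1% in antimiR-224 library 3 (62.2 to 66.0) and 68.8% in antimiR-224 library 4 (65.5 to 71.9). The interval of library 3 lies below that of scramblemiR library 2.

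The 10 genes of the tail, its sheath and the cell's shape also had scramblemiR library 2 highest and antimiR-224 library 3 next, and their order differed among the lower libraries. Akap4 (ENSMUSG00000050089, chrX:7067519-7078609) encodes the main scaffold protein of the fibrous sheath, which surrounds the axoneme of the tail. It was at 0.885, 3196, 1.04 and 0 in the scramblemiR libraries, at 15.7, 44.7, 1122 and 304 with antimiR-224 and at 53.1, 19.0, 8.45 and 1.11 with antimiR-452. Odf1 (ENSMUSG00000061923, chr15:38219203-38226735), a protein of the outer dense fibres that stiffen the tail, was at 0.885, 2755, 0 and 4.59, at 28.8, 113, 697 and 204, and at 68.2, 25.7, 44.3 and 1.11 in the same order of groups. For both genes scramblemiR library 2 was the highest, and the 3 groups overlapped. Smcp, a protein of the capsule around tail mitochondria, reached 2637, and Akap3, a second fibrous sheath scaffold, 2209. Ropn1, which binds such scaffolds, and Spata19, Fscn3, Cabs1, Meig1 and Spem1 reached between 444 (Fscn3) and 1401 (Meig1).

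Meig1, which works with the manchette that shapes the sperm head and tail, had comparatively high levels in several of the lower libraries. It was at 66.3, 101, 322 and 74.3 with antimiR-224, at 84.2, 131, 79.2 and 0 with antimiR-452 and at 0, 1401, 0 and 12.6 with scramblemiR. Of the reads of Meig1 and Prm1 together, Meig1 took 31.8% in scramblemiR library 2 (exact 95% interval 30.5 to 33.2), 24.6% in antimiR-224 library 3 and 20.4% in antimiR-224 library 4. In antimiR-224 libraries 1 and 2 its share was 77.6% (68.0 to 85.4) and 69.8% (61.7 to 77.0), and in antimiR-452 libraries 1, 2 and 3 it was 65.8%, 70.4% and 94.9%. Those 5 libraries are the 5 highest in ciliated epithelium genes, with a geometric mean of 254 to 494 for 17 genes such as Cfap43 and Cfap44, against 94.98 in scramblemiR library 2. They are also the 5 highest in transporting tubule epithelium genes, with a geometric mean of 25.5 to 50.5 for 11 genes, against 7.27 in scramblemiR library 2. Of the reads of Odf1 and Akap3, Odf1 took 89.2% and 89.9% in antimiR-224 libraries 1 and 2, and 68.1% (58.9 to 76.3), 93.1% and 100% in antimiR-452 libraries 1, 2 and 3. Its share was 55.5% (54.1 to 56.8) in scramblemiR library 2, 62.3% (59.3 to 65.3) in antimiR-224 library 3 and 71.3% (65.4 to 76.8) in antimiR-224 library 4, so that antimiR-452 library 1 lay among these 3 and not with the other 4. The part of ciliated or other cells in these shares was not tested.

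**Figure D2:**
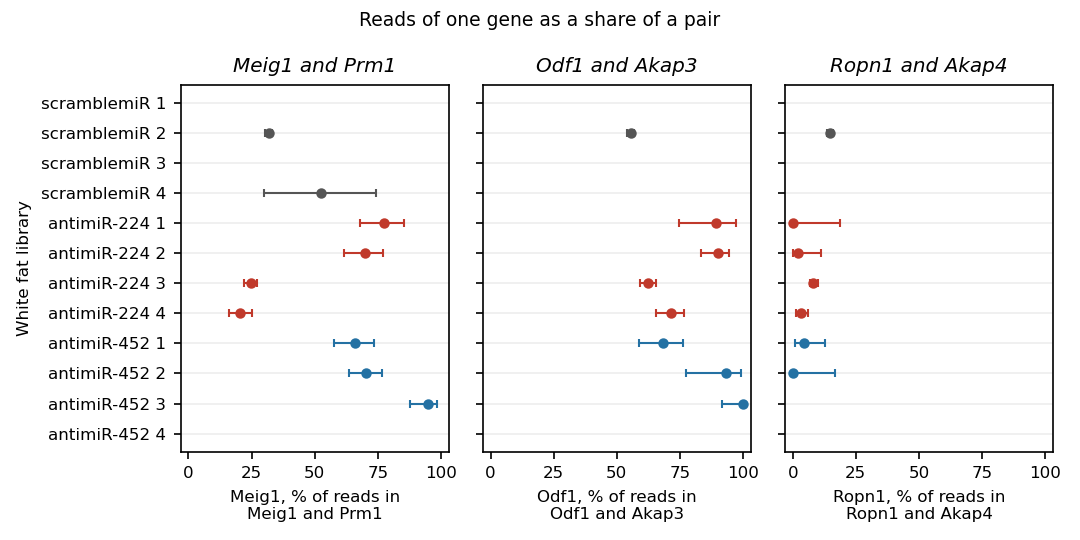
Reads of the first gene as a percentage of the reads of both genes of a pair (horizontal axis) in each white fat library (vertical axis), with exact 95% binomial intervals and no point where a library had under 10 reads in the pair. Meig1 lies between 20.4% and 31.8% in the 3 libraries highest in spermatid genes and at 65.8% or more in antimiR-224 libraries 1 and 2 and antimiR-452 libraries 1 to 3, while Ropn1 lies at 14.8% in scramblemiR library 2, 8.21% in antimiR-224 library 3 and 3.18% in antimiR-224 library 4.

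Spermatids and sperm use their own forms of glycolytic enzymes, 3 of which are in the list. Ldhc (ENSMUSG00000030851, chr7:46861203-46878142), the germ cell lactate dehydrogenase, was at 2.65, 4868, 0 and 0 in the scramblemiR libraries, at 21.8, 38.9, 1373 and 219 with antimiR-224 and at 165, 25.7, 1.06 and 0 with antimiR-452. Gapdhs (ENSMUSG00000061099, chr7:30729775-30743681), the form of glyceraldehyde phosphate dehydrogenase bound to the fibrous sheath, was at 0, 2619.9, 1.04 and 2.30, at 11.3, 33.0, 628 and 198, and at 52.2, 8.56, 4.22 and 0. The groups overlapped for both enzymes, and antimiR-452 library 1 was the highest of its group. Pgk2, the phosphoglycerate kinase of germ cells, reached 1566. Ldhc and Pgk2 are already transcribed in meiotic cells, and Ldhc took 75.7% of the reads of the pair in scramblemiR library 2 (74.6 to 76.7), 73.5% in antimiR-224 library 3 (71.4 to 75.6) and 59.6% in antimiR-224 library 4 (54.1 to 65.0).

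The 4 testis-specific serine kinases were lower. Tssk6 (ENSMUSG00000047654, chr8:69902184-69903518), needed for the shaping of the sperm head, was at 9.73, 884, 4.17 and 0 with scramblemiR, at 14.8, 34.0, 168 and 85.3 with antimiR-224 and at 19.4, 6.66, 7.39 and 6.66 with antimiR-452. Tssk2 (ENSMUSG00000045521, chr16:17898637-17900024) was at 0.885, 881, 0 and 0, at 6.97, 6.80, 177 and 36.6, and at 20.2, 5.70, 4.22 and 0. Both were highest in scramblemiR library 2, with antimiR-224 library 3 next, and the groups overlapped. Tssk1, beside Tssk2 on chromosome 16, and Tssk3 reached 747 and 510.3. The exons of Tssk6 overlap those of 2 genes on the other strand and those of Tssk1 overlap Dgcr2. Exons of Tnp1, Fscn3, Gapdhs, Zpbp, Hspa1l and Oaz3 also overlap genes on the other strand. The kit marks strand, but whether counting used it is not given in the sources used here.

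CATSPER1 to CATSPER4 form the pore of the calcium channel of the sperm tail, and their genes differed most among themselves. Catsper2 (ENSMUSG00000033486, chr2:121392631-121413792) was present in every WAT library, at 190.3, 748, 252 and 211 with scramblemiR, at 148, 166, 301 and 164 after antimiR-224, and at 171, 271, 187 and 295 after antimiR-452. The 3 libraries with the highest summed level held a share of 0.391 of its summed WAT level, the lowest of the 36 genes, followed by Spaca1 with 0.555. Its exons overlap those of Pdia3, a widely expressed chaperone gene on the other strand. Catsper4 (ENSMUSG00000048003, chr4:134211970-134227383) was at 0, 386, 2.08 and 2.30, at 4.36, 1.94, 50.2 and 0, and at 6.74, 3.80, 2.11 and 0. Catsper1 reached 382 in scramblemiR library 2, with 26.2 for antimiR-224 library 3 and 12.2 for library 4. No read of Catsper1 was found in the 9 other WAT libraries, which in the 3 controls allows up to 0.107, 0.127 and 0.135 RPM (3 reads). Catsper3 was above 0 in all 12 WAT libraries, at 4.36 to 32.7 outside scramblemiR library 2 and 266 in it.

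The acrosome is the secretory cap of the sperm head, and 9 genes of the list encode its proteins or proteins that bind the egg. Dkkl1 (ENSMUSG00000030792, chr7:45207519-45212147), a secreted acrosomal protein, was at 0, 1409.5, 4.17 and 2.30 with scramblemiR, at 6.97, 13.6, 251 and 58.7 with antimiR-224 and at 31.2, 19.0, 5.28 and 1.11 with antimiR-452. Spaca1 (ENSMUSG00000028264, chr4:34024874-34050191), a membrane protein of the acrosome, was at 85.8, 510.3, 57.3 and 74.7, at 61.9, 41.8, 135 and 74.3, and at 60.7, 49.4, 60.2 and 84.4. Dkkl1 was near 0 in 3 of the 4 controls, while Spaca1 had a level of at least 41.8 in every WAT library and stood above 100 only in scramblemiR library 2 and antimiR-224 library 3. Acr, the acrosomal protease acrosin, and Zpbp, which binds the egg coat, also had a level in all 12 WAT libraries, of 15.04 to 77.4 and 11.5 to 74.2 outside scramblemiR library 2. Zpbp2, Acrv1 and Spaca3 reached 368, 514 and 331. The lowest WAT means of the 36 belonged to the remaining genes. Izumo1 (ENSMUSG00000064158, chr7:45621811-45628823), the sperm protein that joins the egg's receptor at fusion, had a WAT mean of 26.1, and Spaca4 (ENSMUSG00000070563, chr7:45725107-45725813) one of 24.6. Izumo1 was at 0.885, 231, 1.04 and 0, at 6.10, 12.6, 27.3 and 11.1, and at 6.74, 0.951, 8.45 and 6.66, and Spaca4 was at 0, 241, 0 and 0, at 0, 0, 46.9 and 5.54, and at 0.842, 0.951, 0 and 0, in the order of groups used above. The exons of Izumo1 overlap those of Rasip1 on the same strand, and how counting treated shared reads is not given in the sources used here. No gene of the list had a WAT mean under 10, the minimum for testing, so none lay just outside it. Some reached it only through scramblemiR library 2. Without that library, 31 of the 36 genes kept such a mean in the antimiR-224 comparison and 15 in the antimiR-452 comparison.

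The remaining pair is Oaz3, a germ cell inhibitor of polyamine synthesis, and Hspa1l, a chaperone of the HSP70 family abundant in spermatids. Oaz3 (ENSMUSG00000028141, chr3:94432414-94443915) was at 3.54, 3499, 1.04 and 8.04 with scramblemiR, at 48.0, 66.1, 880.3 and 217 with antimiR-224 and at 46.3, 39.0, 22.2 and 1.11 with antimiR-452. The groups overlapped for Oaz3 too. Hspa1l reached 1359 in scramblemiR library 2 and 393 in antimiR-224 library 3.

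The step from scramblemiR library 2 to antimiR-224 library 3 was not the same for every gene. Measured as a percentage of scramblemiR library 2, the chromatin packaging genes had a median of 31.4% in antimiR-224 library 3, the glycolytic genes 28.2%, the tail genes 24.1%, the kinases 19.0%, the acrosome genes 17.8% and the calcium channel genes 12.6%. Single genes ran from 6.84% (Catsper1) to 40.2% (Catsper2), and Tnp1 stood at 37.9%. Catsper2 was present in every library, at 25.4%, 33.7% and 28.3% in scramblemiR libraries 1, 3 and 4. Spaca1 was at 16.8%, 11.2% and 14.6% there. In antimiR-224 library 4 the chromatin packaging genes had a median of 9.44% and the acrosome genes 4.51%. Catsper1 took 12.2% of the reads of Catsper1 and Odf1 in scramblemiR library 2 (exact 95% interval 11.1 to 13.3) and 3.62% in antimiR-224 library 3 (2.33 to 5.34). These values set 1 library against another, so they describe libraries and not treatments.

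**Figure D3:**
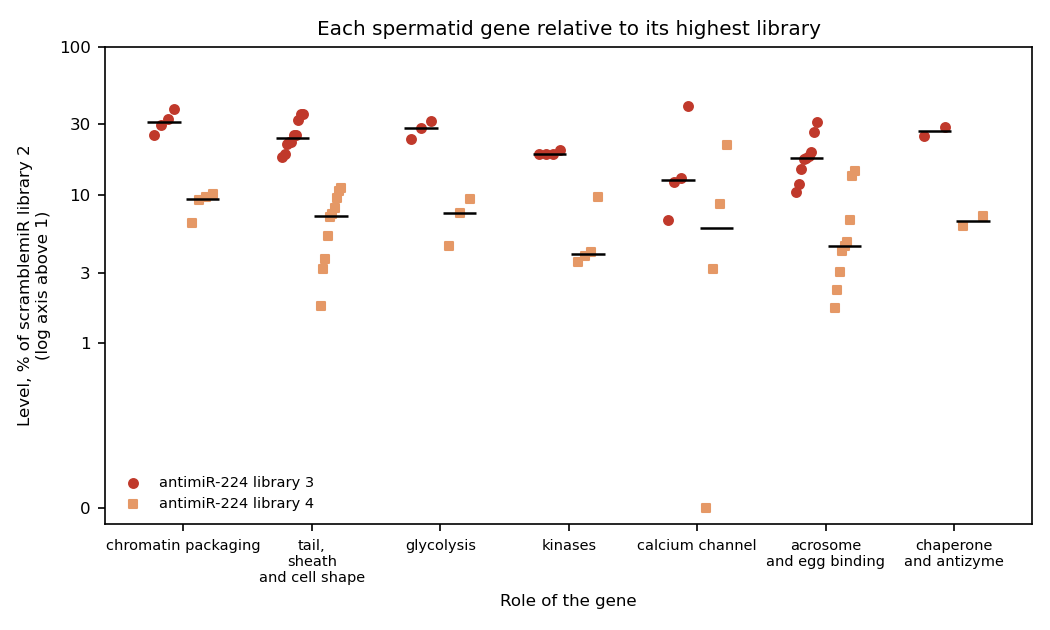
Level of each spermatid gene in antimiR-224 libraries 3 and 4 as a percentage of its level in scramblemiR library 2 (vertical axis, logarithmic above 1), by role (horizontal axis), with points for genes and black lines for medians. In library 3 the chromatin packaging genes centre on 31.4% and the calcium channel genes on 12.6%. Catsper2, which is present in every white fat library, is highest at 40.2%, and Catsper1 is lowest at 6.84%.

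Other genes shared the pattern. Over the 12 WAT libraries, 572 of 14141 genes whose mean reached 10, with reads recovered in all libraries, had a Pearson correlation of at least 0.9 with the mean log2 level of the 36 genes, which include 28 of the 36 themselves. The 12 points are the same libraries that the members were chosen on, so this is a description. Each member is also part of the mean it was set against, which raises its own correlation. The most alike outside the list was Znrf4 (r = 0.996), a ubiquitin ligase gene, at 0, 1225, 0 and 1.15 with scramblemiR, at 3.49, 6.80, 247 and 38.8 after antimiR-224, and at 12.6, 3.80, 1.06 and 0 after antimiR-452. It was followed by 1700031M16Rik (0.993), Csnka2ip (0.993), Ccdc136 (0.991), Spert (0.991), Acsbg2 (0.989), H2al2a (0.989), 1700074P13Rik (0.988), Iqcf5 (0.987) and Gtf2a1l (0.987). Within the list, Tssk2 (0.988) and Tssk3 (0.987) were the most alike, and Catsper2 (0.588), Spaca1 (0.739), Catsper3 (0.744) and Meig1 (0.835) the least. Of the 657 genes that set scramblemiR library 2 apart from the other controls, 656 had reads recovered in all WAT libraries, and 633 of these reached a level of 10 in antimiR-224 library 3 and 342 in antimiR-224 library 4, against 9 to 205 in the 6 other inhibitor libraries.

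Markers of other cells that lie near or precede spermatids were set beside them. ScramblemiR library 2 was the highest WAT library for 37 of 40 other late germ cell genes, for 24 of 29 genes of meiosis and for 13 of 18 Sertoli cell genes, the somatic cells that nurse germ cells, against 19% of the 14141 genes. It was highest for 4 of 8 Leydig cell genes and 10 of 15 genes of spermatogonia. The geometric mean of the meiotic genes was 127 in scramblemiR library 2, beside 3.89 to 5.43 among the other controls, and that of the Sertoli genes 86.9 against 4.45 to 5.79. The Sertoli genes Cst9, Cst12 and Rhox5 stood at 264, 133 and 53.6 there and at 0 in the 3 other controls, while Sox9, which other epithelia also express, was highest at 1700.2 in antimiR-224 library 2. Genes of the epididymis followed another order, being highest in scramblemiR library 2 for 5 of 33. Spink8 peaked in antimiR-224 library 2 (3828), ahead of antimiR-452 library 1 (825) and scramblemiR library 2 (89.3), and Defb28 did so with 1065, 196 and 18.8. Prm1 was at 43.7 in antimiR-224 library 2 and 43.8 in antimiR-452 library 1. Of 10 genes of the male reproductive glands 5 had no row and none reached a mean of 10. ScramblemiR library 2 was also the highest for 2 of 17 genes of ciliated epithelium, 1 of 11 of transporting tubule epithelium, 5 of 10 of ovary and oocyte and, among lists written after the data were seen, 1 of 23 skeletal muscle genes and 0 of 3 sex-linked genes. Of 14 adipocyte genes 2 had reads recovered in all libraries, and 0 were highest there. In the controls, where all reads were recovered, 13 of the 14 adipocyte genes had their lowest level in scramblemiR library 2, against 29.6% of 17773 genes. Car3 stood at 381546 there and at 606486 to 755894 in the other controls, Cidea at 43.2 beside 43.8 in library 3, and the exception was Ucp1, at 5.64 there and 1.04 in library 3. The part of these cells in the levels of the 36 genes was not tested.

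**Figure D4:**
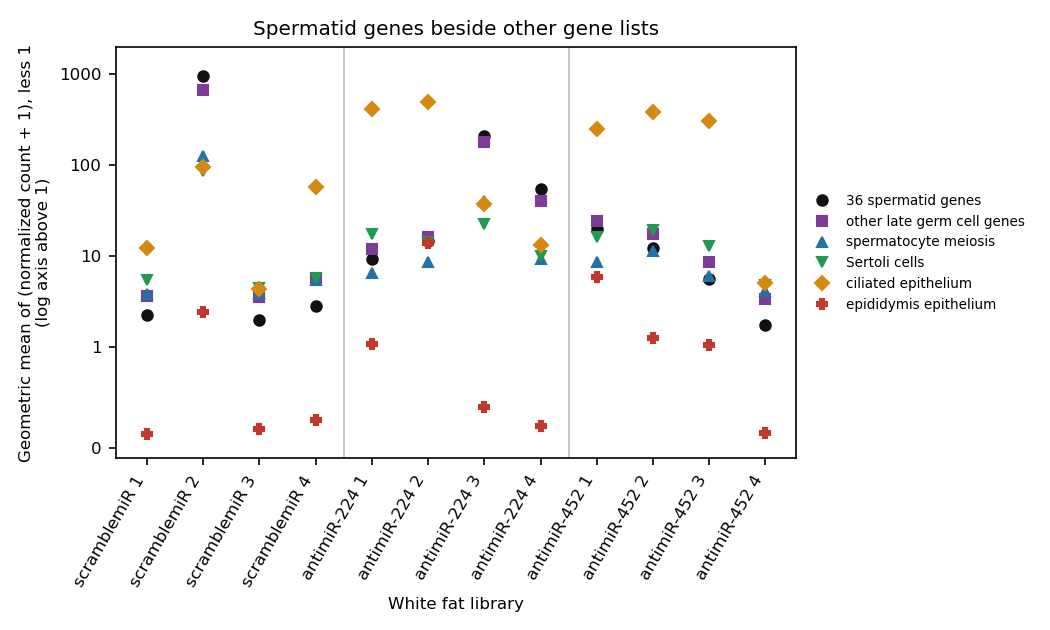
Geometric mean of (normalized count + 1), less 1, over the 36 spermatid genes and 5 other gene lists (vertical axis, logarithmic above 1) in the 12 white fat libraries (horizontal axis). The spermatid, late germ cell and meiotic genes peak together in scramblemiR library 2 and antimiR-224 library 3, whereas the ciliated epithelium genes are highest, at 254 to 494, in antimiR-224 libraries 1 and 2 and antimiR-452 libraries 1 to 3.

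Between treatments in WAT, none of the 36 genes was called for either inhibitor by limma on log2(normalized count + 1), with an adjusted p under 0.05, where the background was 0% of 15111 genes for antimiR-224 and 0% of 14399 for antimiR-452. At an unadjusted limma p under 0.05 the count was likewise 0 of 36 for both, against 5.97% and 4.67% of the genes tested, and no member separated the groups without overlap, against 3.51% and 1.74%. Because the same WAT levels chose the genes, nothing is read from these counts. The median log2 difference of the 36 genes was 1.76 with antimiR-224 (26 above 0, 10 below) beside 0.02 over all genes tested, and -0.70 with antimiR-452 (5 above, 31 below) beside -0.03. Without scramblemiR library 2 the medians of the same 36 genes were 3.81 and 1.35. That library was the highest of all for each of the 36 genes, so leaving it out lowers every control mean. The genes were chosen on these levels, and nothing is read from the direction of these medians. In the authors' deposited tables, which compare means, all 36 genes were lower with either inhibitor, with adjusted p-values of 1, where 0.00343% of all genes for antimiR-224 and 0% for antimiR-452 were called. At an unadjusted p under 0.05 the authors' deposited tables called 0 of the 36 in both, against 1.55% and 2.41% of genes. The lowest unadjusted p in the authors' deposited table was 0.232 for antimiR-224 (Catsper2) and 0.0566 for antimiR-452 (Catsper1). The mean of Prm2 was 1735 ± 3443 (SD, n = 4) in the controls, and antimiR-224 libraries gave 656 ± 777 (SD, n = 4). Both inhibitor comparisons share the 4 control libraries.

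In brown fat, which the choice of the genes did not use, 19 of the 36 genes had reads. The other 17, Prm1, Tnp1, Tnp2, Akap4, Odf1, Gapdhs, Ldhc and Pgk2 included, had no row in either BAT table and are given as 0, and Prm2 had reads in 1 library of 12, antimiR-452 library 3, at a level of 1. In the BAT controls the 36 genes took 25.6, 36.5, 14.6 and 14.8 RPM, and 0 reads of a gene allows up to 0.148 to 0.177 RPM there. A level of 10 was reached in some BAT library by 10 of the 36 genes. Catsper2 was again present throughout, at 145, 142, 121 and 119 with scramblemiR, at 109, 231, 128 and 148 after antimiR-224, and at 105, 174, 68.2 and 192 after antimiR-452. Spaca1 was at 18.9 to 87.3 in the 12 BAT libraries. Tssk1 and Zpbp2 were higher in each BAT control, at 19.4 to 33.7 and 12.9 to 26.1, than in WAT controls 1, 3 and 4, where they were at 2.30 to 11.5 and 1.04 to 3.45, and the tissues were normalized separately.

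Hspa1l and Catsper4 varied widely among the brown fat libraries. Hspa1l (ENSMUSG00000007033, chr17:34972703-34979285) was at 212, 413, 2.12 and 2.17 with scramblemiR, at 139.7, 11.7, 5.67 and 8.16 with antimiR-224 and at 704, 8.74, 4.01 and 39.3 with antimiR-452. Catsper4 was at 20.3, 41.6, 0 and 2.17, at 15.2, 0.835, 0 and 0, and at 125, 1.94, 0 and 2.07. Both were highest in the same 4 libraries, namely scramblemiR 1 and 2, antimiR-224 1 and antimiR-452 1, 1 or 2 in every group, and the groups overlapped. Those libraries were also the 4 highest in skeletal muscle genes, listed after the data were seen, of which 4 of 25 had reads recovered in all BAT libraries. Their geometric mean was 662, 180.0, 338 and 778 there and at most 43.1 in the other 8. In WAT, antimiR-452 library 3 had a geometric mean of 133 over 23 muscle genes, with Hspa1l at 14.8 and Catsper4 at 2.11. Prm2, Akap4 and Odf1 were at 0 in the 4 muscle-rich BAT libraries. The part of muscle in these levels was not tested.

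**Figure D5:**
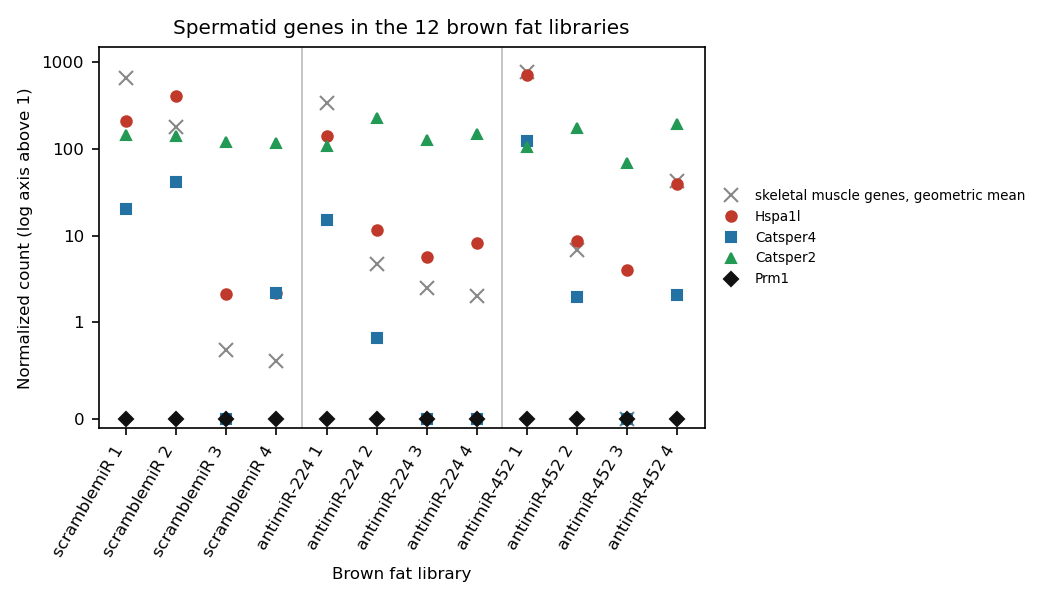
Normalized counts of Hspa1l, Catsper4, Catsper2 and Prm1 and the geometric mean of 4 skeletal muscle genes (vertical axis, logarithmic above 1) in the 12 brown fat libraries (horizontal axis). Hspa1l and Catsper4 are highest where muscle genes are highest, Catsper2 lies between 68.2 and 231 throughout, and Prm1 is at 0 in all 12.

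With antimiR-224 in BAT, limma tested 8 of the 36 genes (mean of at least 10) and called 0, with 0% of 11916 genes called, and with antimiR-452 it tested 6 and called 0, with 0% of 12301. At an unadjusted p under 0.05 the counts were 0 of 8 and 0 of 6, against 5.62% and 4.21% of genes. None of the tested members separated the groups without overlap, against 3.59% and 3.34%. In the authors' deposited tables the adjusted p was 1 for every member with a row (0% of all genes called in both), and 0 had an unadjusted p under 0.05, against 1.15% and 0.499% of genes. Catsper4 differed by -1.65 on the log2 scale after antimiR-224 (SE 1.39, limma adjusted p = 0.758) and Hspa1l by -0.75 (SE 1.92, limma adjusted p = 0.907). Catsper2 differed by 0.17 (SE 0.25, limma adjusted p = 0.843). After antimiR-452 Catsper2 differed by -0.09 (SE 0.34, limma adjusted p = 0.996) and Hspa1l by 0.16 (SE 2.09, limma adjusted p = 0.9998). The median of the tested members was 0.25 and -0.22, beside -0.09 and -0.07 over all genes tested. None of these differences passed the test, which does not show that the levels were equal.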

How the data were processed

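RNA of white and brown fat was sequenced in 24 libraries, 4 in each of 6 groups, and 4 tables, each of 1 inhibitor against scramblemiR in 1 tissue, were deposited. The means in them are a signal, the average normalized count of a gene over the 4 libraries of a group, made by the authors, per the file headers. The deposited ratio and log2 columns compare these means, and the deposited p-value columns, unadjusted and adjusted, are the authors', per the file headers. The submitters' processing notes name DESeq 1.10.1, R 2.15.3 and build GRCm38.p4. Which aligner, counter and annotation were used is not stated there. Tables were normalized separately, the control size factors differed between tables by at most 1.88%, and printed control values use the antimiR-224 table.

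Because the means hold 15 printed digits, the whole reads of each library were recovered from them, uniquely for 100.00% of genes in the controls of both tissues, for 90.66% (antimiR-224) and 88.55% (antimiR-452) in WAT and for 89.55% and 90.55% in BAT. On simulated WAT data of 27864 genes, 0 of the uniquely recovered values were wrong, and recovery in BAT was not simulated. Genes without a unique solution were left out, among them 2 with no solution at all with antimiR-452 in WAT. The lowest chi-square per degree of freedom between libraries of a group was 10.8, so no library was counted as a repeat. Columns of unmapped samples numbered 0.

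Groups were compared with limma 3.58.1 (R 4.3.3, variance trend, robust) on log2(normalized count + 1) for genes with a mean of at least 10 in the comparison, each inhibitor with its controls, two-sided, with Benjamini-Hochberg adjustment over all genes tested and a threshold of 0.05. In simulations of the 4 comparisons in the order WAT antimiR-224, WAT antimiR-452, BAT antimiR-224 and BAT antimiR-452, limma called 87, 83, 86 and 82 of 100 genes changed 4-fold and 53, 46, 54 and 24 of 100 changed 2-fold, with 7, 3, 5 and 6 false calls. Each simulated gene had the spread typical of its mean. With antimiR-224 the limma SE was 2.23 for Prm2 in WAT, 1.92 for Hspa1l in BAT and 0.25 for Catsper2 in BAT. The simulated rates therefore do not hold for spermatid genes that varied as widely as Prm2 or Hspa1l. Alternatives were other pseudocounts and minimum means, the ratio of means and leaving out each library. Members and lists were chosen with earlier results of these data known, and 2 of the 13 marker lists were written after the data were seen. Levels in every library are given for the 2 genes with the highest WAT mean in each role (1 where a role has 2), for those with a share under 0.5 in the 3 highest libraries, and for those nearest a mean of 10. The 10 outside genes most alike by Pearson correlation are named. Others were picked after their values were seen. Gene names matched for 99.42% of WAT and 99.46% of BAT identifiers. Exon lengths and coordinates come from an annotation of GRCm38. Python 3.11.15, numpy 2.4.6, pandas 2.3.3, scipy 1.17.1 and matplotlib 3.10.9 were used.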

Additional observations from a re-analysis of the deposited data

Results flagged for a closer look

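In each group of 4 libraries whose highest level reached 10, the gap between an extreme library and its nearest neighbour, as a share of the group's whole range, was set against Dixon's 95% critical value for 4 libraries. The WAT levels chose the genes, so in WAT the gaps describe how far 1 library stood from the rest and are no test. In the WAT controls the gap lay above that value for all 36 spermatid genes and their summed level, each through scramblemiR library 2. The gap was 1 for Akap3, Akap4, Ropn1, Spata19, Tssk3, Catsper1 and Spaca4, 0.999 for Cabs1, Gapdhs, Ldhc and Tssk2, 0.998 for Tnp1, Tnp2, Odf1, Pgk2, Oaz3 and the summed level, 0.997 for Prm1, Acrv1 and Dkkl1, 0.996 for Prm2 and Smcp. It came to 0.995 for Fscn3 and Izumo1, 0.994 for Spem1, Catsper4 and Spaca3, 0.993 for Zpbp2, 0.991 for Meig1 and Hspa1l, 0.989 for Tssk6. Lower gaps were 0.988 for Tssk1, 0.964 for Acr, 0.961 for Zpbp, 0.947 for Catsper3, 0.937 for Spaca1. Below these came 0.889 for Catsper2. Catsper2 and Spaca1, present in every WAT library, thus stood least apart.

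With antimiR-224 in WAT the gap was above the value in 10 of 37 groups, chosen on the same levels, and in each the highest library was antimiR-224 library 3, the second highest of all 12. The gap was 0.913 for Catsper4, 0.902 for Acrv1, 0.901 for Ropn1, 0.883 for Catsper2, 0.882 for Spaca4, 0.871 for Zpbp2, 0.869 for Spata19, 0.864 for Meig1, 0.854 for Ldhc, 0.846 for Tssk1. With antimiR-452 in WAT it was above in 6 of 29, with 0.942 for Tssk6, 0.931 for Akap3, 0.898 for Zpbp2, 0.853 for Tssk1, 0.845 for Ldhc, 0.836 for Gapdhs.

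In BAT the levels did not choose the genes. A rate of about 1 in 20 would hold for independent groups of normally spread values. Here groups entered by their highest level, and the summed level contains the single genes. The BAT gaps are therefore a description too. There the gap with antimiR-224 was 0.955 for Hspa1l, 0.945 for Catsper4 (2 of 10 groups). With antimiR-452 it was 0.983 for Catsper4, 0.961 for Acr, 0.95 for Hspa1l, 0.834 for the summed level (4 of 11 groups). Hspa1l and Catsper4 passed in both inhibitor groups, where library 1 was the highest in each. Skeletal muscle genes were also highest there, and their part was not tested.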

How the results depend on the processing

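No paired analysis was possible because the recovered libraries cannot be tied to the numbers in the sample titles. Of 106 alternative values for 10 results, 99 stayed within 1 SD between libraries without changing sign or, for counts, within 1.5 times. These include both BAT medians with no minimum mean, which were 0 (0.25 and -0.22 otherwise), since 17 genes have no row there. For antimiR-224 and antimiR-452 that SD was 3.21 and 3.04 on the log2 scale in WAT and 0.49 and 0.79 in BAT. Each SD exceeded the size of the median it was set against, so staying within it does not show that a median was stable. The median log2 difference of the spermatid genes in WAT was 1.76 for antimiR-224 and -1.56 by the ratio of group means. For antimiR-452 it was -0.70, with 1.35 without scramblemiR library 2 and -4.70 by the ratio of group means. In BAT with antimiR-452 it was -0.22, with 0.037 at a minimum mean of 50 and 0.13 by the ratio of group means. The cause was not tested. Leaving out each library gave 0.90 to 3.81 for antimiR-224 and -1.49 to 1.35 for antimiR-452 in WAT, and 0.10 to 0.52 and -0.32 to -0.0040 in BAT. Genes called by limma stayed at 0 in every left-out fit, except that antimiR-452 in WAT gave 0 to 525, the latter without antimiR-452 library 4 and with 0 spermatid genes among them. In BAT, 19 spermatid genes had any read and 8 had a mean of at least 10. A level near 1 rests on about 1 read.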
